A study of Mus musculus with 28 samples.

Results

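A set of 8 mouse genes was followed here across every culture of the study: Timp1, C3, Crispld2, Tgm2, Gipr, Gdpd2, Fscn1 and Fam114a1 (in the deposited tables TIMP1, C3, CRISPLD2, TGM2, GIPR, GDPD2, FSCN1 and FAM114A1). These 8 of the 20891 genes in the deposited tables had been picked from the same libraries for a strong loss with DFMO in Th17n cells, or for moving the opposite way in iTreg cells. The levels with and without DFMO, and the contrast between the differentiations, are therefore given as a description and without a test. The comparison of genotypes was not used in the choice and is tested, although it draws on the same libraries. All 8 genes passed the filter on low counts that left 10985 genes for the fits.

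The study measured RNA in 28 libraries of spleen CD4+ T cells from C57BL/6 mice. Naive cells (CD4+CD44-CD62L+CD25-) were sorted, activated on plates with antibodies to CD3 and CD28, and differentiated for 68 h into non-pathogenic Th17 cells (Th17n) with 25 ng/ml IL-6 and 2 ng/ml TGF-beta 1, or into induced regulatory T cells (iTreg) with 2 ng/ml TGF-beta 1. Each kind of culture was kept without drug (ctrl) or with 100 µM DFMO, which blocks ornithine decarboxylase, the first enzyme of polyamine synthesis. Cells came from 4 control animals, labelled WT, and from 3 JMJD3fl/flCD4cre animals (KO). In the KO animals the Cre acts in cells of the T lineage, because the CD4 promoter drives it, and removes the floxed part of Kdm6b, the gene of the histone H3 lysine 27 demethylase JMJD3. The labels do not say whether the WT animals carried CD4cre or floxed alleles. Ages were not given in the sources used here. Each animal gave 4 libraries, so the 8 groups held 4 WT or 3 KO libraries each, and replicates are separate animals.

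The polyamines putrescine, spermidine and spermine are small cations that bind nucleic acids, and spermidine is the substrate for the hypusine modification of the translation factor eIF5A. Th17 cells make IL-17 under the transcription factor ROR gamma t, whose induction needs STAT3 activity downstream of IL-6 together with TGF-beta. Regulatory T cells induced by TGF-beta alone express Foxp3. The 8 genes have no common pathway: they encode secreted or matrix proteins, a hormone receptor, a membrane enzyme, an actin-bundling protein and a member of the FAM114A family.

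Library depth was 2226914 to 4759290 estimated counts. Kdm6b was not lost in KO libraries: it stood at 47.1 ± 11.5 CPM (SD, n = 4) in WT and 34.1 ± 8.06 CPM (n = 3) in KO Th17n ctrl, where libraries overlapped. Its KO against WT log2 fold change was -0.44 and -0.48 in Th17n and iTreg ctrl (adjusted p = 0.285 and 0.188, edgeR), and -0.95 and -1.01 with DFMO (adjusted p = 0.0076 and 0.00251). Gene-level values do not show the deleted part, so they do not give the share of cells that lost it. The summed level of 9 T cell markers was 3240 to 4730 CPM in all libraries. In Th17n it was lower with DFMO without overlap, at 4030 to 4500 then 3500 to 4000 CPM in WT. In Th17n KO it was 4470 to 4730 then 3980 to 4090. The iTreg groups overlapped, at 3270 to 3810 then 3240 to 4300 CPM in WT and 3630 to 3960 then 3770 to 4170 in KO. C1qa, C1qb and C1qc of the macrophage list and Col3a1 of the fibroblast list were at 0 in all 28 libraries, Lyz2 in 27. Other markers of these lists had counts in every library: Cd68, and Fbln1 and Thy1 of the fibroblast list. Their means over Th17n ctrl libraries of both genotypes were 10.7, 15.6 and 131 CPM. These values do not tell which cells carried the RNA, and the T cells themselves may have.

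The genes lie on 6 chromosomes (GRCm38, GENCODE M21): Tgm2 at chr2:158116402-158146436 on the minus strand, Fam114a1 at chr5:64970071-65041886 and Fscn1 at chr5:142960343-142973185 on the plus strand, Gipr at chr7:19156061-19166127 on the minus strand, Crispld2 at chr8:119992438-120052793 on the plus strand, C3 at chr17:57203970-57228136 on the minus strand, and Timp1 at chrX:20870166-20874735 and Gdpd2 at chrX:100729873-100738895 on the plus strand. Up to 250 bases before the start of transcription were read from RefSeq's table for GRCm38.p6, which held 6 of the 8 genes, and 4 are shown, those that hold a match to 1 of the motifs printed in capitals. They run 5′ to 3′ on the gene's strand, and capitals mark matches on either strand to a TATA box (TATAAA), a C/EBP motif (TTGCNNAA), a cyclic AMP response element (TGACGTCA) or an E-box (CACGTG), none of which overlap each other.
C3, chr17:57228137-57228386, minus strand: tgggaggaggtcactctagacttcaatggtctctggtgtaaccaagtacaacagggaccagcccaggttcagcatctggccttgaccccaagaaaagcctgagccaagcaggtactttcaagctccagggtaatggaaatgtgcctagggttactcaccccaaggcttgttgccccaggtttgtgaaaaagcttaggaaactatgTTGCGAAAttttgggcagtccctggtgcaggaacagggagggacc
Gdpd2, chrX:100729597-100729846, plus strand: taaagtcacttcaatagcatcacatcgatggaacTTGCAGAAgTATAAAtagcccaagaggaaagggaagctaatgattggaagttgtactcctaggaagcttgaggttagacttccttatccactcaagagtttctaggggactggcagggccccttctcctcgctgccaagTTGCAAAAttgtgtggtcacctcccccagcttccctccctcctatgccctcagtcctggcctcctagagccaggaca
Crispld2, chr8:119992188-119992437, plus strand: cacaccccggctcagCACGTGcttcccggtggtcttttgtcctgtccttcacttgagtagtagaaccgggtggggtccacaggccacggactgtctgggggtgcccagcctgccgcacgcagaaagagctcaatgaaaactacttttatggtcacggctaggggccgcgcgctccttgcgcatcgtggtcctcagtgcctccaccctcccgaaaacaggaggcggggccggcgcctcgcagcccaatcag
Fscn1, chr5:142960105-142960342, plus strand: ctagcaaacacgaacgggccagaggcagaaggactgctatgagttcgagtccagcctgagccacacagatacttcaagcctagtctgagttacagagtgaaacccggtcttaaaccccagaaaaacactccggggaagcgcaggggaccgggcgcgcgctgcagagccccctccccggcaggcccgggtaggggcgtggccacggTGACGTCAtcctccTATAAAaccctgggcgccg

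The C/EBP letters began 45 bases before the start of C3 and 216 and 77 bases before that of Gdpd2, and 9.56% of all 32851 windows in the table held them. In Fscn1 the TATA box began 31 bases and the cyclic AMP element 45 bases before the start. These motifs were in 12.4% and 1.55% of all windows. All positions count from RefSeq's start. For Fscn1 that start lies inside the gene's GENCODE coordinates. Its printed window was cut at the gene, so it holds 238 bases and ends short of RefSeq's start. The E-box of Crispld2 began 235 bases before its start (6.02% of windows). No match to a STAT motif (TTCNNNGAA, 7.02% of windows), an AP-1 motif (TGANTCA, 6.75%) or a SMAD palindrome (GTCTAGAC, 0.167%) lay in the 6 windows. A ROR half-site (AGGTCA, 14%) lay in the windows of C3, where it is printed in lower case, and of Fam114a1, which is not shown. A match describes the letters and not a binding site.

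Levels of the 8 genes in untreated Th17n cells spanned a wide range per length. In Th17n ctrl WT, Timp1 stood at 1530 ± 50.3 TPM (SD, n = 4), Tgm2 at 332 ± 84.7, Crispld2 at 51.9 ± 6.63, Gipr at 46.1 ± 14.4, Fam114a1 at 15.2 ± 5.29, C3 at 13.2 ± 4.20, Gdpd2 at 6.29 ± 2.23 and Fscn1 at 2.75 ± 0.698. Values below are CPM (counts scaled to library size, with TMM factors), which compare libraries for 1 gene and not genes with each other. In bulk RNA, fewer cells of a kind and less RNA per cell cannot be told apart.

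**Figure D1:**
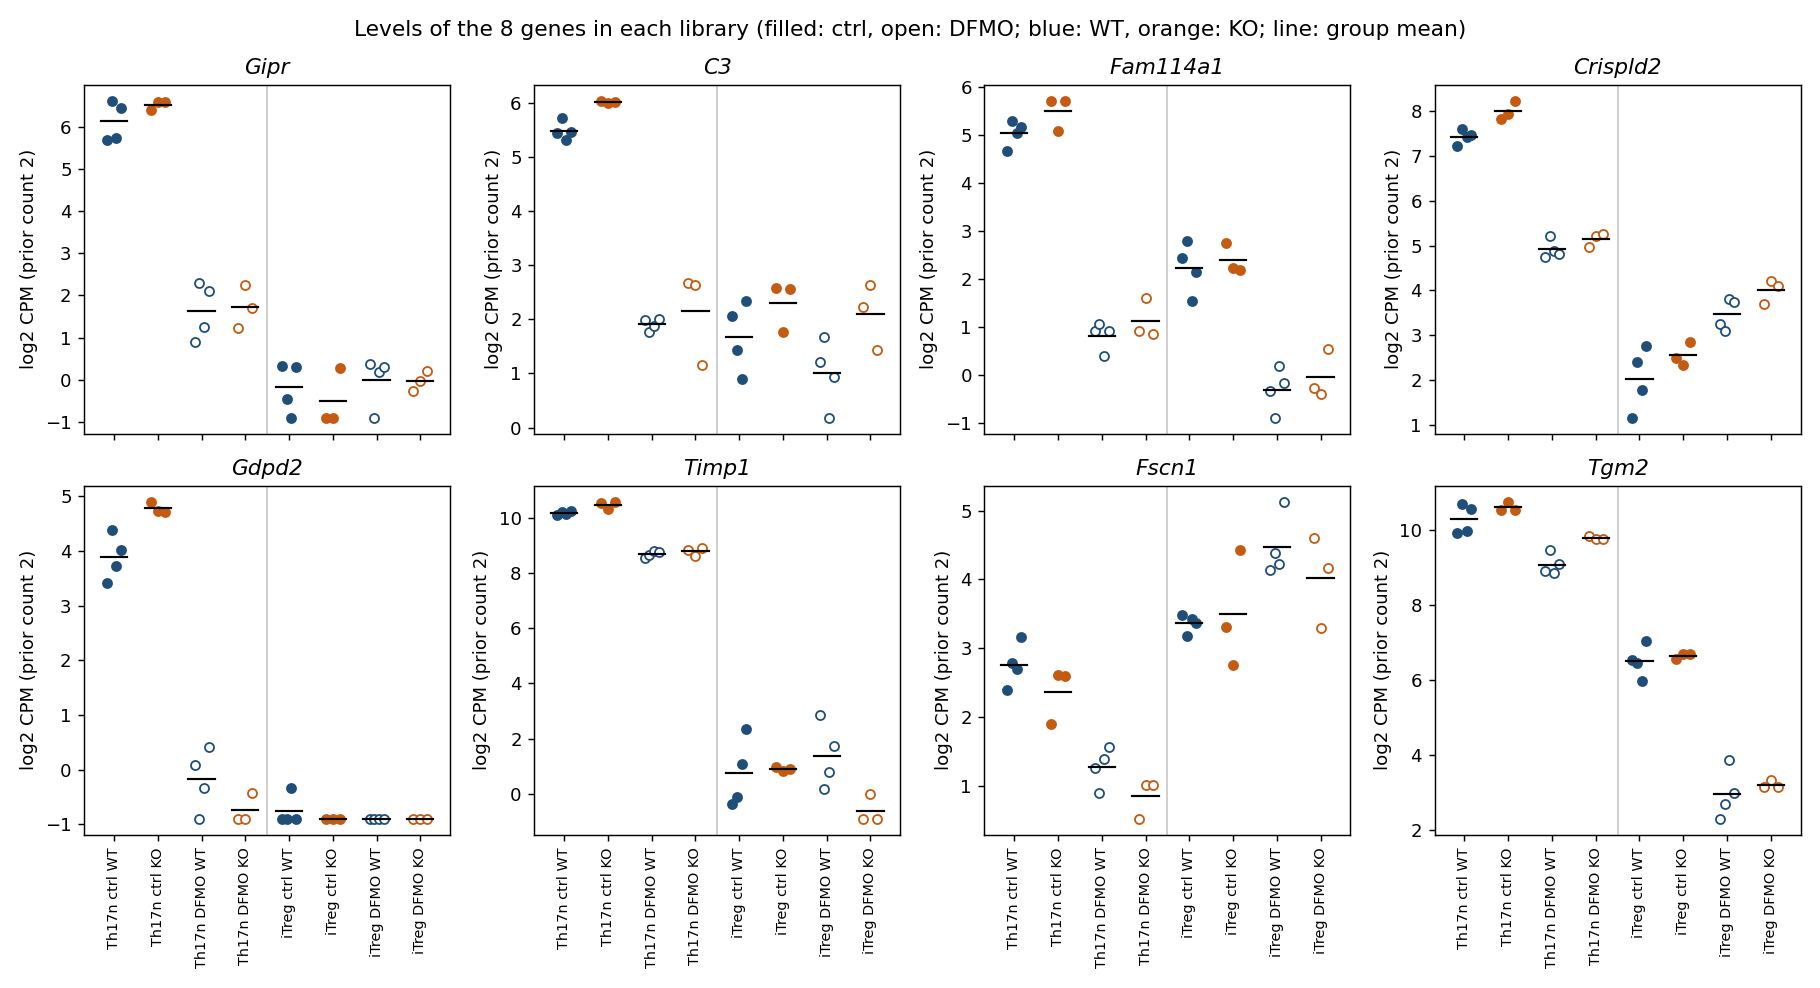
Log2 CPM (prior count 2) of each gene in every library, by group. Points are libraries and bars are group means. All 8 genes were lower in each DFMO-treated Th17n library than in any untreated Th17n library, and Fscn1 had its highest group mean in iTreg with DFMO.

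With DFMO, all 8 genes were lower in Th17n of both genotypes, which the choice of genes fixed. The median log2 fold change of the 8 was -3.15 in WT and -3.37 in KO, against -0.071 and -0.056 over all 10985 genes, of which 28.4% (WT) and 24.6% (KO) were called lower and 23.4% and 21.1% higher. Nothing is read from these shares, since the choice used this contrast. Among the 10985 genes ordered from the largest decrease in WT, Gdpd2 ranked 6, Fam114a1 10, Gipr 11 and C3 25. Crispld2 ranked 150, Fscn1 431, Timp1 624 and Tgm2 892, so the set joins near-complete losses with moderate ones.

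**Figure D2:**
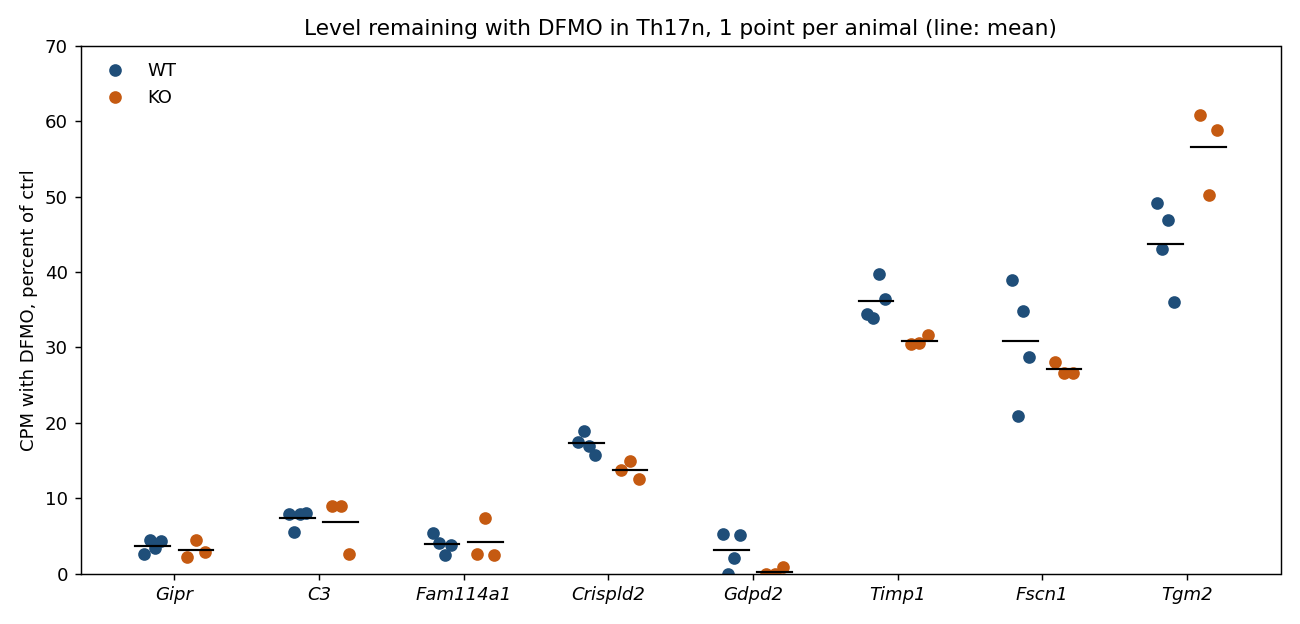
CPM with DFMO as a percentage of the same animal's untreated CPM in Th17n, 1 point per animal and bars at the mean. Gipr, C3, Fam114a1 and Gdpd2 lay below 10 percent of the untreated level in every animal, and Tgm2 kept 43.8% on average in WT and 56.6% in KO.

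Among the secreted proteins, Timp1, which inhibits matrix metalloproteinases, had the highest level per length of the 8 genes. Its CPM in Th17n ctrl WT was 1090, 1180, 1120 and 1200 in animals 1 to 4, and 376, 400, 446 and 436 with DFMO. In KO animals 1 to 3 it was 1470, 1280 and 1520 without and 447, 391 and 479 with DFMO. Every treated library was below every untreated one. The level that remained was 36.2 ± 2.66% in WT and 30.9 ± 0.643% in KO, and the log2 fold changes were -1.47 ± 0.18 (SE) and -1.69 ± 0.21.

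In iTreg cells Timp1 was close to the detection limit. Its CPM was 0.242, 0.395, 1.58 and 4.53 in ctrl WT, from 1, 2, 6 and 13 counts, and 6.65, 0.594, 1.2 and 2.78 with DFMO. Untreated KO libraries held 1.45, 1.23 and 1.34 CPM, treated ones 0, 0.451 and 0. The WT groups overlapped, and animal 1, which went from 1 to 26 counts, set the fitted change of 1.05 ± 0.55, which was 0.06 without its treated library. Untreated Th17n WT cells exceeded untreated iTreg WT cells by 9.64 ± 0.31 on the log2 scale, the widest gap between the differentiations in WT among the 7 genes other than Gdpd2. The gene lies inside Syn1 on the opposite strand, and how much their reads overlap was not tested. Syn1 rose in WT Th17n with DFMO (log2 fold change 0.93 ± 0.33, adjusted p = 0.0194).

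C3, the central component of the complement cascade, fell to a small remainder. Its CPM was 43.3, 52.1, 39.4 and 43.5 in Th17n ctrl WT and 3.45, 2.86, 3.12 and 3.5 with DFMO. In KO it was 65.1, 63.7 and 63.8 without DFMO and 5.85, 5.69 and 1.68 with it. The remainder was 7.36 ± 1.25% in WT and 6.86 ± 3.65% in KO. The third KO animal had the lowest treated value, from 8 counts against 26 and 23. In iTreg cells C3 was low throughout, with group means of 1.61 to 4.55 CPM. With DFMO the Th17n libraries lay above the iTreg libraries in WT, and the 2 overlapped in KO. Its iTreg log2 fold change was -0.77 ± 0.44 in WT and -0.17 ± 0.41 in KO, which are within about 2 standard errors of 0.

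Crispld2, a secreted cysteine-rich protein with LCCL domains, moved in opposite directions in the differentiations. In Th17n WT its CPM was 150, 193, 172 and 176 without DFMO and 26.2, 36.6, 29.1 and 27.7 with it. In Th17n KO it in turn was 226, 244 and 299 without and 31.1, 36.6 and 37.5 with DFMO. In iTreg WT it was 1.69, 4.74, 2.89 and 6.27 without DFMO and 8.95, 8.02, 13.5 and 12.9 with it. The iTreg groups of each genotype did not overlap, and the KO values were 5.07, 4.52 and 6.69 without and 12.5, 18.1 and 16.6 with DFMO. The log2 fold changes were -2.52 ± 0.15 and -2.87 ± 0.17 in Th17n and 1.49 ± 0.26 and 1.52 ± 0.28 in iTreg, for WT and KO. Although it rose with DFMO in iTreg, each treated iTreg library remained below each treated Th17n library. The untreated difference of 5.50 ± 0.20 log2 units between Th17n and iTreg WT narrowed to 1.48 ± 0.19 with DFMO.

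Tgm2 encodes the tissue transglutaminase, which crosslinks proteins and can also attach polyamines to them. Its loss was smaller in Th17n than in iTreg. Its CPM in Th17n WT was 967, 1630, 986 and 1490 without DFMO and 474, 699, 462 and 536 with it. In Th17n KO it was 1480, 1710 and 1470, then 901, 859 and 864. WT animals 2 and 4 stood above animals 1 and 3 in both treatments, and the same order held for Gipr. In iTreg WT the values were 91.3, 87.0, 62.1 and 129 without DFMO and 4.35, 5.94, 14.1 and 7.30 with it. In iTreg KO they were 92.3, 102 and 103, then 8.32, 9.48 and 8.30. The log2 fold changes were -1.22 ± 0.18 and -0.83 ± 0.21 in Th17n and -3.55 ± 0.25 and -3.50 ± 0.29 in iTreg, for WT and KO. The Th17n excess over iTreg in WT was 3.79 ± 0.20 log2 units without DFMO and 6.11 ± 0.26 with it, so it widened, unlike that of Crispld2. The gene overlaps Rprd1b on the opposite strand, which rose in Th17n WT (0.49 ± 0.10, adjusted p = 0.000136).

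The receptor of the set was Gipr, the class B receptor for the gut hormone GIP. Its CPM in Th17n WT was 51.3, 97.3, 53.0 and 87.0 without DFMO and 1.33, 4.40, 1.82 and 3.77 with it. In Th17n KO it was 83.4, 94.7 and 95.5, then 1.80, 4.21 and 2.74. Among the WT animals, 2 and 4 had the most Gipr before treatment and also after it. What remained was 3.72 ± 0.891% in WT and 3.15 ± 1.17% in KO, and the log2 fold changes were -4.63 ± 0.29 and -4.97 ± 0.33. iTreg libraries held 0 to 3 counts each, with group means of 0.223 to 0.516 CPM, so a DFMO difference was not detectable there at this depth. Summed over libraries, 1319 counts in Th17n ctrl WT against 6 in iTreg ctrl WT gave a ratio of 190, with a 95% counting interval of 86.9 to 518. After treatment the ratio was 5.58 (2.50 to 14.6).

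Gdpd2, a membrane glycerophosphodiester phosphodiesterase, came closest to disappearing. Its CPM in Th17n WT was 10.2, 20.3, 12.8 and 15.6 without DFMO and 0.530, 0, 0.260 and 0.807 with it. In Th17n KO it was 29.3, 26.3 and 25.7, then 0, 0 and 0.210. The sums were 269 against 6 counts in WT, a ratio of 38.7 (95% counting interval 17.6 to 106), and 232 against 1 in KO, a ratio of 355 (63.0 to 14100). Counting intervals and floors cover counting error alone. In iTreg, 1 of the 14 libraries held a single count and the others held 0. Untreated Th17n KO was 73-fold above untreated iTreg KO when a floor of 3 counts over the group was taken. The 95% counting interval of that ratio began at 58.9.

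Fscn1, the actin-bundling protein fascin, was the 1 gene of the 8 with more RNA in iTreg than in Th17n. Its CPM in Th17n WT was 4.76, 6.32, 5.96 and 8.44 without DFMO and 1.86, 1.32, 2.08 and 2.42 with it. In Th17n KO it was 3.21, 5.57 and 5.54, then 0.9, 1.48 and 1.47. In iTreg WT it was 10.7, 8.50, 10.3 and 9.76 without DFMO and 17.1, 20.5, 18.0 and 34.4 with it. These iTreg WT groups did not overlap. Those of iTreg KO did, at 9.41, 6.17 and 21.1 without and 23.8, 9.25 and 17.5 with DFMO. The log2 fold changes were -1.73 ± 0.40 and -1.90 ± 0.53 in Th17n and 1.19 ± 0.29 and 0.42 ± 0.34 in iTreg, for WT and KO. Between treated cultures, iTreg WT exceeded Th17n WT by 3.54 ± 0.36 log2 units (Th17n minus iTreg was -3.54), against -0.61 ± 0.31 without DFMO. Leaving out the third library of iTreg ctrl KO, at 21.1 CPM, moved the iTreg KO change to 1.07. In TPM the treated Th17n WT libraries read 4.36, 1.08, 1.23 and 0.878 and the untreated ones 1.74, 3.27, 2.8 and 3.18. Treated animal 1 was thus the highest of these 8 libraries in TPM, and the Th17n WT change was -0.50 on the log2(TPM + 1) scale.

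Fam114a1 fell in both differentiations. Its CPM in Th17n WT was 24.9, 38.4, 32.1 and 35.3 without DFMO and 1.33, 1.54, 0.780 and 1.35 with it. In Th17n KO it was 51.8, 33.4 and 51.7, then 1.35, 2.47 and 1.26. The iTreg group means were 4.34 ± 1.67 CPM (WT) and 4.76 ± 1.21 (KO) without DFMO, and 0.301 ± 0.248 and 0.482 ± 0.383 with it. Untreated iTreg libraries held 9 to 32 counts and treated ones 0 to 3. The log2 fold changes were -4.66 ± 0.30 and -4.75 ± 0.32 in Th17n and -3.77 ± 0.51 and -3.30 ± 0.55 in iTreg, for WT and KO.

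**Figure D3:**
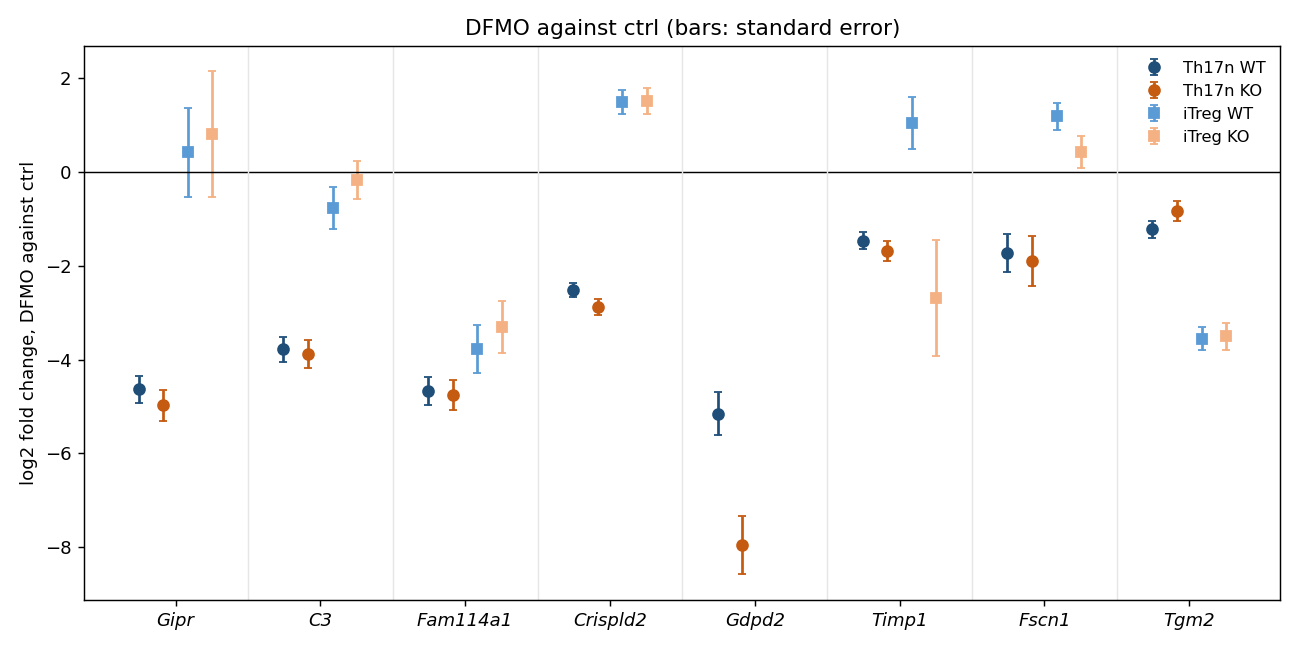
Log2 fold change of DFMO against ctrl for each gene in the 4 backgrounds, with standard errors. Gdpd2 in iTreg is not drawn because its libraries held 0 or 1 count, and its Th17n KO point rests on 1 treated count. Crispld2 moved to -2.52 in Th17n WT and 1.49 in iTreg WT, while Tgm2 fell more in iTreg (-3.55) than in Th17n (-1.22).

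In iTreg the 7 genes other than Gdpd2 had a median log2 fold change with DFMO of 0.42 in WT (4 higher, 3 lower) and -0.17 in KO (3 higher, 4 lower), against medians over all genes of -0.047 and -0.028. Of all genes, 47.5% in iTreg WT and 38.1% in iTreg KO were called either way. Since the 8 genes were chosen from these contrasts, no reading is made of these counts.

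The comparison of KO with WT asks whether the levels depended on JMJD3. In Th17n ctrl 7 of the 8 genes had a higher fitted level in KO. Of the 8, 1 was called, against 3.04% of all genes, and 4 had an unadjusted p under 0.05. Here and below, the share of all genes with an unadjusted p under 0.05 was not counted. The same holds for the share higher in KO, so neither count is read as an excess. The median log2 fold change was 0.41, against -0.012 over all genes. Crispld2 was the called gene, at 256 ± 38.2 CPM in KO (n = 3) and 173 ± 17.7 in WT (n = 4), a log2 fold change of 0.57 ± 0.15 (adjusted p = 0.0232, edgeR quasi-likelihood test with Benjamini-Hochberg adjustment). The call was lost without the Th17n ctrl library of WT animal 1 (0.51, adjusted p = 0.0819), WT animal 3 (0.57, 0.0621), KO animal 2 (0.61, 0.0530) or KO animal 3 (0.44, 0.217). It was also lost with limma on log2(TPM + 1) (0.51, 0.272) or log2(TPM + 0.1) (0.52, 0.494).

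The KO and WT libraries of Th17n ctrl also did not overlap for C3, Gdpd2 and Timp1. With Crispld2 this made 4 of 8 genes with each KO library above each WT library, against 9.19% of all tested genes. These libraries also entered the DFMO contrast by which the genes were chosen, so the count is not read as an excess. Gdpd2 stood at 27.1 ± 1.96 CPM in KO and 14.7 ± 4.34 in WT (log2 fold change 0.88 ± 0.30, edgeR adjusted p = 0.135). C3 stood at 64.2 ± 0.804 in KO and 44.6 ± 5.39 in WT (0.53 ± 0.22, adjusted p = 0.229). With the animal as a random replicate block in limma voom, which adds the pairing of an animal's 4 libraries and changes the tool, Gdpd2 (0.92, adjusted p = 0.00137) and C3 (0.54, 0.0217) were called beside Crispld2 (0.58, 0.000656). A fit to these 2 groups alone called Gdpd2 (adjusted p = 0.0254), C3 (0.0169) and Timp1 (0.31, 0.0449) beside Crispld2. Fscn1 had the opposite sign, -0.38 ± 0.39 (adjusted p = 0.716), with overlapping libraries.

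With DFMO in Th17n, 0 of 8 genes were called between the genotypes in edgeR, where 1.02% of all genes were, and 1 had an unadjusted p under 0.05. That gene was Tgm2, at 875 ± 23.1 CPM in KO and 543 ± 109 in WT, and its libraries did not overlap (log2 fold change 0.69 ± 0.19, adjusted p = 0.0957). It was called with the animal as a random replicate block in limma voom (0.71, adjusted p = 0.0179) and in a fit to the 2 groups alone (0.69, 0.0120). Tgm2 was also called without the filter on low counts (0.69, 1.04e-05) and without the treated Th17n library of WT animal 2 (0.83, 0.0340). Without DFMO the Tgm2 difference was 0.29 ± 0.19 (adjusted p = 0.508). Gipr was level in the treated cultures, with a log2 fold change of 0.00 ± 0.41 (adjusted p = 1).

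In iTreg ctrl 0 of 8 genes were called in edgeR, against 5.3% of all genes, and 0 had an unadjusted p under 0.05. Summed over WT and KO libraries there, Gdpd2 held 1 and 0 counts, Gipr 6 and 2, and Timp1 22 and 11. Such counts left little room for a call, so the 0 does not show that genotype had no effect on these genes. With DFMO in iTreg 1 of 8 was called, against 4.14% of all genes, and 3 of 8 had an unadjusted p under 0.05. This was Timp1, whose 4 WT libraries held 26, 2, 4 and 8 counts and whose KO libraries held 0, 2 and 0. The WT to KO ratio of summed counts was 16.4 (95% counting interval 4.25 to 140), and the KO against WT log2 fold change was -3.80 ± 0.94 (edgeR adjusted p = 0.0157). Timp1 passed the filter on low counts through its Th17n libraries, and a filter on these groups alone removed it. Its call is therefore not read as an effect of genotype. The call was lost without the treated iTreg library of WT animal 1 (-2.81, adjusted p = 0.135), KO animal 1 (-3.35, 0.0837) or KO animal 3 (-3.36, 0.0659). It was also lost with the animal as a random replicate block in limma voom (-3.17, 0.115). C3 was higher in KO by 1.32 ± 0.44 (adjusted p = 0.0958), from group means of 3.98 ± 1.75 and 1.61 ± 0.861 CPM. It was called in DESeq2 (1.33, adjusted p = 0.0411) and without the filter (1.32, 0.0385). C3 was also called without the treated iTreg library of WT animal 2 (1.66, 0.0427) or KO animal 3 (1.59, 0.0446).

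**Figure D4:**
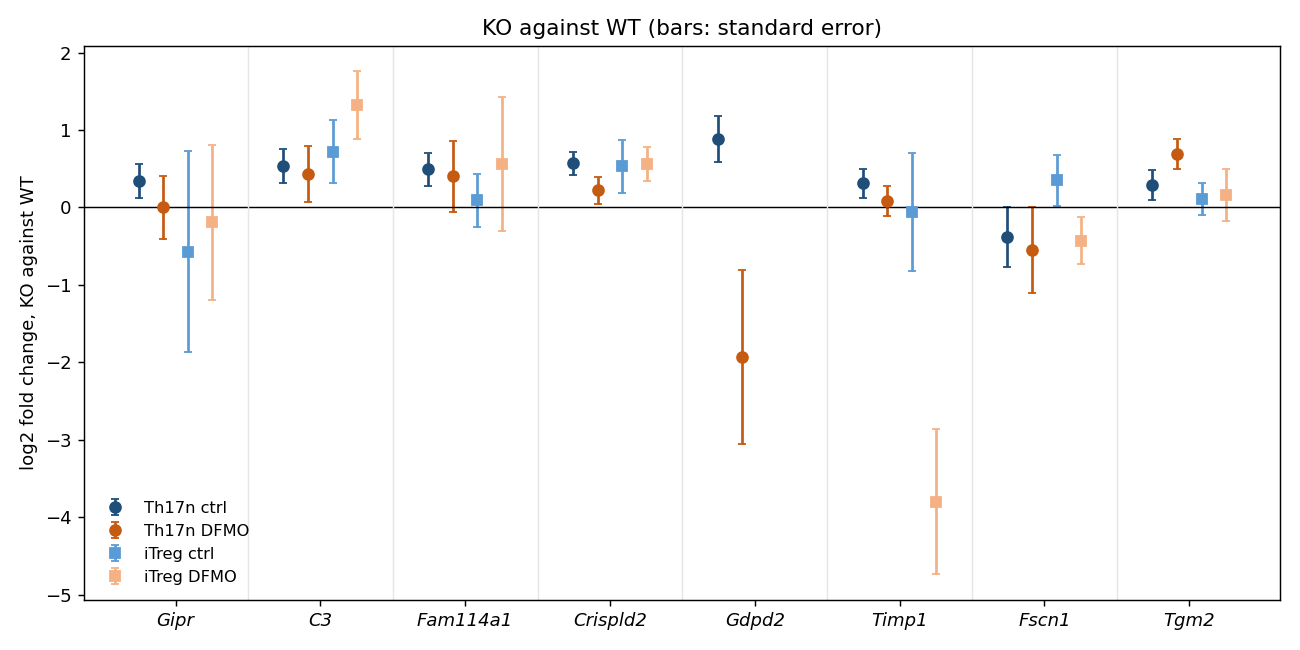
Log2 fold change of KO against WT for each gene in the 4 cultures, with standard errors. Gdpd2 in iTreg is not drawn because its libraries held 0 or 1 count. Crispld2 in Th17n ctrl (0.57) and Timp1 in iTreg with DFMO (-3.80) were the calls. There Timp1 held 2 to 26 counts per WT library and 0 to 2 per KO library.

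The size of the DFMO effect was then compared between genotypes by an interaction term. This term contains the DFMO effects by which the genes were picked. In Th17n 0 of 8 genes were called, where 0.328% of all genes were, and 1 had an unadjusted p under 0.05. Gdpd2 gave the lowest value, -2.80 ± 1.18 (edgeR adjusted p = 0.613), and rests on 1 treated KO count. By animal, Tgm2 kept 49.1, 43.0, 46.9 and 36.0% of its untreated level in WT and 60.8, 50.2 and 58.9% in KO, with an interaction of 0.39 ± 0.27 (adjusted p = 0.863). Crispld2 kept 17.5, 18.9, 16.9 and 15.8% in WT and 13.8, 15 and 12.5% in KO, with an interaction of -0.35 ± 0.23 (adjusted p = 0.854). These percentages did not overlap between genotypes, yet the fitted differences were under 2 standard errors. The same held for Timp1, at 33.9 to 39.8% in WT and 30.4 to 31.6% in KO (interaction -0.23 ± 0.27). The share of all genes without such overlap was not counted, so nothing is read from it. In iTreg 0 of 8 were called, against 0.246% of all genes, and Gdpd2, Gipr and Timp1 held few counts there. Timp1 gave -3.73 ± 1.34 (edgeR adjusted p = 0.318), the 1 gene with an unadjusted p under 0.05, and it was called without the filter (-3.72, adjusted p = 0.0112).

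Genes related to each member by function were read from lists that hold no member, with the calls of the same fit. Over all genes, 23.4% were called higher and 28.4% lower with DFMO in Th17n WT. No count of a list here or below was tested against these shares. Of 13 tested metalloproteinases, inhibitors and partners of Timp1, 0 rose and 5 fell in Th17n WT with DFMO (median log2 fold change -0.19, against -0.071 over all genes). Cd63, a tetraspanin that binds Timp1, fell by 2.97 ± 0.35 on the log2 scale (adjusted p = 3.11e-08). The sheddase Adam8 fell by 2.24 ± 0.34 (adjusted p = 1.97e-06). In iTreg WT Adam8 had a log2 fold change of -0.18 ± 0.43 (adjusted p = 0.750) and Cd63 one of -0.90 ± 0.45 (adjusted p = 0.105). In iTreg KO Cd63 fell by 2.72 ± 0.56 (adjusted p = 0.00029), and Adam8 had a log2 fold change of -0.17 ± 0.54 (adjusted p = 0.837).

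Of 10 other complement genes, 3 rose and 2 fell in Th17n WT (median 0.34), where 23.4% of all genes rose and 28.4% fell. The classical-pathway proteases C1s1 and C1ra rose by 3.03 ± 0.41 and 2.96 ± 0.69 (adjusted p = 3.42e-07 and 0.000759), the opposite direction to C3. Both started low in Th17n WT, at 3.31 ± 1.68 and 0.595 ± 0.804 CPM. With DFMO they stood at 27.3 ± 11.6 and 4.91 ± 2.75 CPM. Among 12 transglutaminases, crosslinking enzymes and matrix receptors, 5 rose and 4 fell (median -0.04). Tgm1, the keratinocyte-type transglutaminase, fell by 3.09 ± 0.23 (adjusted p = 7.76e-12), the integrin subunit Itgb3 fell by 2.84 ± 0.34 and Itgb1 rose by 2.66 ± 0.29. Of 3 tested genes on the list of incretins and class B receptors, Calcrl rose (1.26 ± 0.25, adjusted p = 0.000108) and Dpp4, the protease that inactivates incretins, fell by 0.83 ± 0.18 (adjusted p = 0.000252).

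Of 8 phosphodiesterases and relatives of Gdpd2, 1 rose and 3 fell in Th17n WT (median -0.08), where 23.4% of all genes rose and 28.4% fell. Among them the lysophospholipase Enpp2 fell by 3.27 ± 0.37 (adjusted p = 1.84e-08). Of 21 actin genes, 3 rose and 6 fell (median 0.01), with the filament-severing Cfl1 at 0.83 ± 0.07 and Evl at -1.58 ± 0.24. Fam114a2, the paralog of Fam114a1, fell by 1.00 ± 0.09 (adjusted p = 1.62e-10). Of 7 CAP and LCCL domain genes, 0 rose and 1 fell (median -0.52), which was Glipr2 (-0.92 ± 0.10).

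The signals used for the differentiation were read from further lists. Of all genes, 23.4% rose and 28.4% fell in Th17n WT, and 21.1% and 24.6% in Th17n KO. Of 26 genes of the IL-6 and STAT3 response, 2 rose and 13 fell in Th17n WT (median -0.46), and 1 rose and 7 fell in Th17n KO (median -0.25). Stat3 itself fell by 0.86 ± 0.08 and its feedback inhibitor Socs3 by 1.17 ± 0.09 (adjusted p = 3.01e-10 and 1.36e-11). In iTreg WT, 6 of these genes rose and 7 fell (23.1% and 24.3% of all genes), with Stat3 at 0.00 ± 0.08. Of 24 TGF-beta response genes, 4 rose and 6 fell in Th17n WT (median -0.21). The ligand Tgfb3 fell by 4.25 ± 0.26 and the latent TGF-beta binding protein Ltbp3 by 4.53 ± 0.45 (adjusted p = 6.49e-13 and 1.34e-09), both of a size with Gipr. Of 19 genes of polyamine metabolism, 12 rose and 5 fell (median 0.44). Spermidine synthase, Srm, rose by 3.22 ± 0.17 and Odc1, the target of DFMO, by 0.65 ± 0.14 (adjusted p = 3.85e-15 and 0.000217).

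The genes whose log2 CPM most resembled that of each member over the 28 libraries were found by Pearson correlation among 7948 genes with a mean of at least 10 CPM. The libraries share 8 group means, so r describes the pattern over groups and carries no p. Timp1 was closest to Myo10 (r = 0.983) and Serpinf1 (0.978). Myo10 went from 53.2 ± 3.01 to 40.1 ± 4.15 CPM in Th17n WT with DFMO. In iTreg WT it stood at 5.39 ± 0.22 without and 6.39 ± 0.226 with DFMO. Serpinf1 went from 149 ± 23.4 to 43.0 ± 5.73 CPM in Th17n WT and was under 1 CPM on average in iTreg WT. Tgm2 was closest to Glipr2 (0.976) and Slc4a11 (0.974), Gipr to Fth1 (0.978) and Prdx5 (0.967), and Crispld2 to Fth1 (0.966) and P4hb (0.963). Fth1 went from 1380 ± 86.3 to 722 ± 85.8 CPM in Th17n WT and stood at 505 ± 51.6 and 567 ± 60.4 in iTreg WT without and with DFMO. C3 resembled Madd (0.946), Gdpd2 was closest to Madd (0.957) and Nisch (0.952), and Fam114a1 to Appl2 (0.973) and Acap1 (0.972). Fscn1 was closest to Sit1 (0.904) and Cd40 (0.886). Cd40 went from 10.9 ± 2.39 to 30.9 ± 4.79 CPM in iTreg WT and stood at 2.40 ± 0.650 and 1.94 ± 0.945 in Th17n WT.

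The 16 tested genes that flank the members, with overlapping genes left out, were counted beside them. In Th17n WT 5 rose and 5 fell, with a median of 0.06 and a range of -2.56 (Tlr6, before Fam114a1) to 1.92 (Zdhhc7, after Crispld2). In KO 6 rose and 4 fell (median 0.16). Of all genes, 23.4% rose and 28.4% fell in Th17n WT, and 21.1% and 24.6% in Th17n KO.

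Genes on the marker lists of other cell types moved with DFMO as well. Whether T cells or other cells carried them cannot be told from bulk RNA. The summed dendritic cell list was 261 to 381 CPM in Th17n ctrl WT and 78.0 to 86.1 with DFMO, and 145 to 231 then 62.1 to 82.7 in iTreg WT. H2-Ab1 and Cd74 made up most of it, while Itgax was at 0 in 26 of 28 libraries. The macrophage and monocyte list went from 8.65 to 9.70 CPM in Th17n ctrl WT down to 1.33 to 3.12 with DFMO, mostly from Cd68. The endothelial list, mostly Pecam1, went from 54.0 to 64.3 CPM down to 28.3 to 33.7. Between genotypes the macrophage list was 12.7 to 16 CPM in Th17n ctrl KO. The fibroblast list, mostly Thy1, was 134 to 175 CPM without and 100 to 143 with DFMO in Th17n WT. Over both genotypes, mean Thy1 in Th17n was 131 CPM without and 107 with DFMO, and mean Col1a1 was 1.18 and 0.319. Of the 10 dendritic markers 2 to 5 were at 0 in every library of a group, and of the 9 macrophage markers 4 to 7. The part of these markers in the results was not tested.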

How the data were processed

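The authors deposited an estimated count and a TPM per gene and library, made with kallisto on GRCm38 per the submitters' processing notes, whose version is not given in the sources used here. Whole numbers (within 0.001) made up 67.2% of the deposited estimated counts, and all counts were rounded before the fit. Deposited TPM sums were 863920 to 886579 per library.

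A quasi-likelihood model of 8 group means (edgeR 4.0.16, R 4.3.3) was fitted over 28 libraries and all genes kept by filterByExpr, with TMM scaling and no block. P-values were adjusted by Benjamini-Hochberg over 10985 genes, with calls made at adjusted values under 0.05. Standard errors were derived from the F statistic. CPM used TMM-scaled library sizes. The calls of KO against WT in Th17n ctrl were tested on simulated data. Alternatives used limma 3.58.1 (log2(TPM + 1) or + 0.1, and voom with a block), DESeq2 1.42.0, other size factors, no filter, fewer groups and single libraries left out.

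The members and the lists were chosen with earlier results of these data known. Named genes were the members, Kdm6b, Odc1 and Srm, the 2 genes most correlated with each member, and up to 4 genes per list of smallest adjusted p for DFMO in Th17n WT. A gene that this rule names is not reported here. Flanking and overlapping genes were chosen by position and marker genes as examples, after their values were seen.

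Labels give the animal of each library, so libraries pair by animal across treatments and differentiations. Deviations of 28 such pairs from group means correlated at -0.03 to 0.31, and 16 exceeded 0.1. The within-animal correlation estimated over all genes was 0.082.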

Additional observations from a re-analysis of the deposited data

Results flagged for a closer look

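Crispld2 moved down in every Th17n animal and up in every iTreg animal with DFMO, in both genotypes. The fitted difference of the log2 fold changes, Th17n minus iTreg, was -4.02 in WT and -4.39 in KO. Fscn1 did the same in WT, with a difference of -2.92. Both genes were chosen for such behaviour, so these differences were not tested. For Gdpd2, replicate 3 of iTreg ctrl WT stood apart from the other 3 libraries, at 0.263 CPM from 1 count against 0. Of 31 groups of 4 libraries examined in this way, this was the 1 that stood apart. A lone count among libraries at 0 is always flagged by this rule. The usual chance rate of about 1 in 20 therefore does not apply to it.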

How the results depend on the processing

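Neither called difference, Crispld2 in Th17n ctrl nor Timp1 in iTreg with DFMO, changed direction under an alternative that gave it a value, while some uncalled differences near 0 changed sign. In Th17n ctrl, 1 of 8 genes was called between genotypes; 4 were called with only the 2 groups fitted, 3 with the animal as a random replicate block in limma voom and 0 with log2(TPM + 0.1). Leaving out 1 library at a time gave 0 to 1. With log2(TPM + 1) 1 gene was called, Gdpd2 and not Crispld2. In Th17n with DFMO the count of 0 became 1 without the filter on low counts, with the 2 groups alone and with the random replicate block, and was 0 to 1 with 1 library left out. In iTreg ctrl it stayed at 0. In iTreg with DFMO the count of 1 became 2 without the filter and in DESeq2, and 0 with the 2 groups alone, whose filter on low counts removed Timp1, and with the random replicate block; with 1 library left out it was 0 to 2. The DFMO by genotype interaction called 0 genes in both differentiations, also with the animal as a replicate block, and 1 in iTreg without the filter. The replicate block changed no other tested call. Where the cause of a change is not given by the alternative itself, the cause was not tested. Of the DFMO changes without a test, that of C3 in iTreg KO (-0.17) ranged from -0.55 to 0.36. On the log2(TPM + 1) scale, where the pseudocount shrinks the changes of low genes, Fscn1 in Th17n WT went from -1.73 to -0.50, Gdpd2 in Th17n WT from -5.15 to -2.52, and Fam114a1 in iTreg from -3.77 to -1.70 (WT) and from -3.30 to -1.55 (KO). Depth limits Gdpd2, Gipr and Timp1 in iTreg, where libraries held 0 to 26 counts. Replicates are animals, 3 or 4 per group.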
